A study of Mus musculus with 6 samples.

Results

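The imprinted growth network genes examined here are *H19*, *Dlk1*, *Meg3*, *Peg3*, *Plagl1*, *Mest*, *Ndn*, *Grb10* and *Gnas*. These 9 members were taken by name from the 41388 genes counted in RNA-seq of primary mouse chondrocytes, and each name matched a single gene identifier. The cells were isolated from the cartilage of the femoral head of male B6/129 mice aged 21 days and were kept for 2 days in culture without treatment, with 3 samples per genotype. The *Postn*-/- group came from homozygous carriers of the tm1Jmol mutation of *Postn*, the gene of the matrix protein periostin, on a B6129SF2/J background, and the *wt* group from littermates of the same crosses of heterozygotes. The mutation is carried by every cell of the animal from conception, so effects within chondrocytes and effects of other tissues cannot be told apart. The comparison of the genotypes served the study's search for genes that differ in chondrocytes lacking periostin.

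An imprinted gene is read mainly from the copy inherited from a given parent, and that choice is held by DNA methylation set in the egg or sperm. Several imprinted genes act together in fetal and early postnatal growth. Their RNA falls in most tissues once the young animal slows its growth, and the zinc finger protein PLAGL1 is known to bind at other imprinted genes and raise their transcription. Reads of 50 bases counted per gene do not tell the parental copies apart, so imprinting itself was not measured.

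*Grb10*, *Peg3* and *Ndn* are the members whose genotypes lay furthest apart relative to their spread, and their RefSeq promoters (GRCm38.p6, 250 bases before to 50 after the start of the gene) show the sequence at which their transcription begins. Capitals mark matches on either strand to TGCCGC, the core of the site of ZFP57, a protein that keeps imprinted methylation in the embryo, or to GGGGCCCC, a core of the PLAGL1 site.
*Grb10* promoter, chr11:12037371-12037670, minus strand: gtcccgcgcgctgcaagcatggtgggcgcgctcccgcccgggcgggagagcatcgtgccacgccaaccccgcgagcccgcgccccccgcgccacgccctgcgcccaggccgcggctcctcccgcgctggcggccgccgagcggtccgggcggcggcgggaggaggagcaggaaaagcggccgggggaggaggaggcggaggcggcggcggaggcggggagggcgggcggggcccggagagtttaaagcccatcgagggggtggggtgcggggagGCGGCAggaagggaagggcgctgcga
*Peg3* promoter, chr7:6730370-6730669, minus strand: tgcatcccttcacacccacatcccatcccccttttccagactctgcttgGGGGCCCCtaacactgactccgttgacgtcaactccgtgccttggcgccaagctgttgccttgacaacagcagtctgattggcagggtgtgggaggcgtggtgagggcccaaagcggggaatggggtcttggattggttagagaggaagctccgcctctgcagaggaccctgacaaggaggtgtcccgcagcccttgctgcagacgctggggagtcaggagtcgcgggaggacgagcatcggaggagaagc
*Ndn* promoter, chr7:62348027-62348326, plus strand: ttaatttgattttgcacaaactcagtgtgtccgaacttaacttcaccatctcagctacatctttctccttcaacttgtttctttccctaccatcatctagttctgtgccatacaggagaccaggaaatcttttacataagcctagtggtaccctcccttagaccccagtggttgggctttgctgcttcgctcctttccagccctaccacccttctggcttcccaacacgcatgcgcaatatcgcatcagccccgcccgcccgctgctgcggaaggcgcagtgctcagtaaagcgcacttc

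The *Grb10* promoter printed, the first of 2 in the table, holds 45 CpG pairs, the bases that carry methylation, more than 98.1% of the 32851 promoters in the table, and 1 match to TGCCGC. The other, at chr11:12027922-12028221, holds 9 CpG pairs and neither motif. The *Peg3* promoter holds 13 CpG pairs and 1 match to GGGGCCCC. The *Ndn* promoter holds 11 CpG pairs and neither motif. TGCCGC occurs in 11.6% of all promoters and GGGGCCCC in 1.08%, and 8 of the 9 members have a promoter in that table, 3 of them with TGCCGC in the first one listed. A match describes letters and not a bound site.

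*H19* and *Mest* are also hosts of microRNAs, whose mature sequences (RefSeq, GRCm38.p6) are given with the seed, bases 2 to 8, in capitals.
mmu-miR-675-5p, chr7:142577112-142577133, minus strand: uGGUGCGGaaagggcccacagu
mmu-miR-335-5p, chr6:30741314-30741336, plus strand: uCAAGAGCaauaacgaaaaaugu

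The seeds differ. The hairpin of miR-675, 84 bases that lie wholly within exons of *H19*, was listed at 0 reads in all 6 samples, and that of miR-335 at 3 reads in total. Libraries of this kind do not capture mature microRNAs, so neither value is a level of the microRNA. A read on the miR-675 hairpin also falls on *H19*, on the same strand, and only reads on a single feature were counted. Its 0 is therefore fixed by the counting.

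Between 20587640 and 26572260 reads were counted per sample. Cartilage markers were high: *Acan*, the main proteoglycan of cartilage, stood at 1604 to 3764 CPM (read counts scaled to the normalised library size) in the 6 samples. *Col2a1*, its main collagen, was at 13700 to 18080 CPM in knockout and 8271 to 11870 in *wt* samples, without overlap (log2 fold change 0.68, SE 0.21, unadjusted p = 0.0125, adjusted p = 0.717, edgeR). Of the 12 cartilage markers, 8 had a log2 fold change above 0 and 4 below, where 50.8% of all genes were above 0, and 2 (16.7%) had an unadjusted p of at most 0.05, beside 6.3% of all genes. *Col11a2* was the other with an unadjusted p of at most 0.05 (log2 fold change 0.52, unadjusted p = 0.0406, edgeR), with overlapping genotypes. It was at 0.34 without *wt* sample 1 and 0.79 without *wt* sample 2. Without knockout sample 1 or 3 or *wt* sample 1 or 3 the unadjusted p was 0.0914 to 0.118 (edgeR). *Cnmd*, the gene of chondromodulin, was without overlap at 3542 to 4702 CPM in knockout and 4968 to 5781 in *wt* samples (log2 fold change -0.29). Of the 8 muscle markers, 6 were too low to test. *Acta1*, a muscle actin, was at 2.77 to 4.52 CPM in knockout and 4.96 to 15.9 in *wt* samples (log2 fold change -1.31, SE 0.42, unadjusted p = 0.0152, adjusted p = 0.717, edgeR). *Acta1* was at -0.74 without *wt* sample 2 and -1.11 without knockout sample 1 (unadjusted p = 0.0533 and 0.0541, edgeR). With any other sample left out its unadjusted p was 0.00195 to 0.0301 (edgeR). *Des*, the other muscle marker that could be tested, had a log2 fold change of 0.55 (SE 0.41, unadjusted p = 0.217, edgeR) with overlapping genotypes. The part of these marker differences in the members' values was not tested. *Postn* itself was at 4.66, 4.27 and 5.67 CPM in knockout samples against 10.1, 10.3 and 6.90 in *wt* samples (log2 fold change -0.91, SE 0.22, unadjusted p = 0.00362 and adjusted p = 0.717, edgeR quasi-likelihood test with Benjamini-Hochberg adjustment). Every knockout sample lay below every *wt* sample, and *Postn* RNA was still counted in all 3.

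Of the 8 members that could be tested, none passed an adjusted p of 0.05 (lowest 0.717), against 2 of all 14533 genes tested (0.0138%), 1 in each direction (0.00688%). At an unadjusted p of at most 0.05 there were 2, *Grb10* and *Peg3*, both lower in *Postn*-/-. That threshold was met by 6.3% of all tested genes, by 2.35% in the lower direction and by 3.95% in the higher. The genotypes did not overlap for 2 members, *Ndn* with all 3 knockout samples above and *Grb10* with all 3 below, where 13.6% of all genes had no overlap (7.03% higher and 6.57% lower). The median log2 fold change of the 8 was -0.107, with 3 above 0 and 5 below, beside a median of 0.00415 and a share above 0 of 50.8% over all tested genes. In RNA from a whole culture, fewer cells of a type and less RNA per cell cannot be told apart, and the p-values measure the spread between these 3 samples per genotype.

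**Figure D1:**
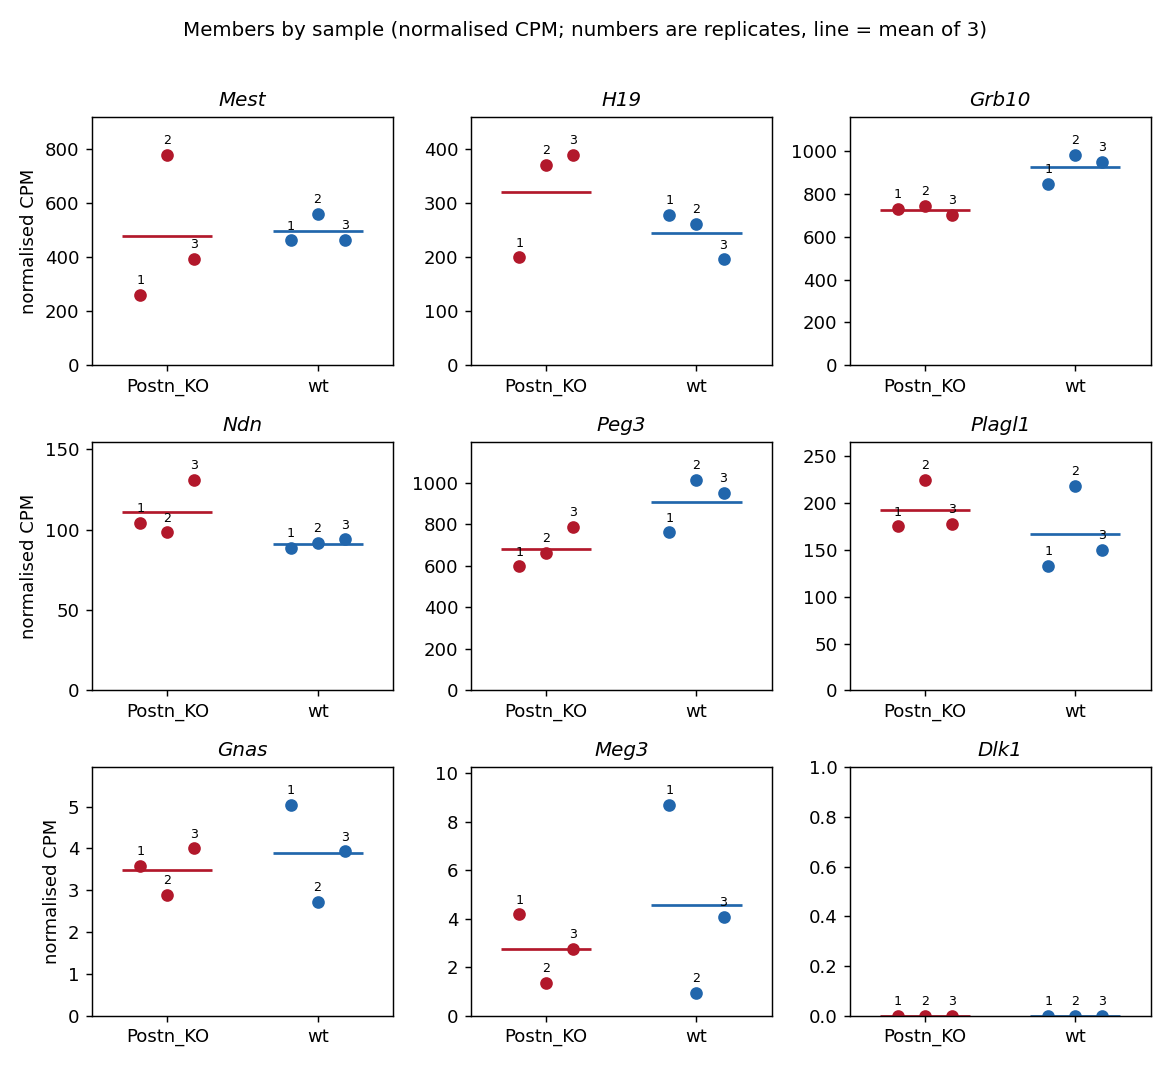
Normalised CPM of the 9 members in the 6 samples, points numbered by replicate and lines at the mean of 3, in panels ordered by level per kb of exon. *Grb10* is lower and *Ndn* higher in every *Postn*-/- sample (red) than in every *wt* sample (blue), and *Dlk1* is listed at 0 throughout.

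Levels between members were compared per kb of exon. *Mest* had the highest mean, 124 CPM per kb, followed by *H19* with 119 and *Grb10* with 90.8, all 3 above 95% of tested genes. Next came *Ndn* with 61.2 CPM per kb, *Peg3* with 59.7 and *Plagl1* with 24.6. At the other end, *Gnas* was at 0.330 and *Meg3* at 0.203 CPM per kb, above only 8.22% and 2.95% of tested genes. Both share sequence with other features or a scaffold, as described further on, so these levels may be too low. From *Mest* down to *Peg3* the sample ranges of neighbours overlapped, as did those of *Gnas* and *Meg3*. *Plagl1*, with 18.2 to 30.8 CPM per kb, overlapped neither *Peg3* above it (44.8 to 76.1) nor *Gnas* below (0.243 to 0.450).

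*Grb10* encodes an adaptor that binds the insulin and IGF1 receptors and restrains their signal, and it is read from the maternal copy in most tissues (chromosome 11, 11930508 to 12038683, minus strand). Its level was 728, 744.9 and 700.0 CPM in knockout samples against 847, 982 and 949 in *wt*. The 3 knockout values lay close together and all lay under the lowest *wt* value. The log2 fold change was -0.35 (SE 0.12, unadjusted p = 0.0154, adjusted p = 0.717, edgeR), or 724 ± 22.7 CPM against 926 ± 70.4 (SD, n = 3). No exonic base of *Grb10* is shared with another feature, and 14689 to 22030 reads stood behind its values. Without the third knockout sample the unadjusted p was 0.0535, and without the third *wt* sample 0.0512 (edgeR).

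*H19*, a maternally expressed RNA that codes for no protein and lies beside the fetal growth factor gene *Igf2*, is on the minus strand of chromosome 7 at 142575529 to 142578143. It was at 199.5, 370.4 and 389 CPM in knockout samples against 278, 261 and 196 in *wt*. The first knockout sample lay among the *wt* samples and the other 2 above them. *H19* had a log2 fold change of 0.38 (SE 0.26, unadjusted p = 0.172, adjusted p = 0.732, edgeR). This difference was 0.63 without knockout sample 1 (unadjusted p = 0.00796, edgeR) and 0.22 without knockout sample 3.

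*Igf2*, the paternally expressed neighbour that shares control elements with *H19*, was at 127, 132 and 322 CPM in knockout samples against 202, 191 and 165 in *wt* (log2 fold change 0.06, SE 0.34, unadjusted p = 0.867, edgeR). The third knockout sample was highest for both genes, and without it the log2 fold change of *Igf2* was -0.52 (unadjusted p = 0.00674, edgeR). Without *wt* sample 3 it was -0.02. Within a sample the ratio of *H19* to *Igf2* was 1.57, 2.81 and 1.21 in *Postn*-/- and 1.38, 1.37 and 1.19 in *wt*. The genotypes overlapped, and the mean log2 ratio was 0.42 higher in *Postn*-/- (two-sided exact permutation p = 0.3, the smallest possible being 0.1). Without the second knockout sample that difference was 0.08, and without the third it was 0.68 (exact permutation p = 0.1, the smallest possible).

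*Peg3* encodes a paternally expressed zinc finger protein involved in maternal behaviour and fetal growth (chromosome 7, 6703892 to 6730421, minus strand). Its level was 597, 662 and 788 CPM in knockout samples against 761, 1013 and 951 in *wt*. The highest knockout sample passed the lowest *wt* sample, so the genotypes overlapped. *Peg3* had a log2 fold change of -0.41 (SE 0.16, unadjusted p = 0.0329, adjusted p = 0.717, edgeR). Without knockout sample 1 or 2 or *wt* sample 2 or 3 the unadjusted p was 0.0768 to 0.115 (edgeR). Over the 6 samples *Peg3* varied with *Grb10* (Pearson's r of log2 CPM 0.83) and with *Zim1*, the maternally expressed zinc finger gene next to it (r = 0.892), where points share library and depth. *Zim1* was at 3.42, 4.80 and 8.05 CPM in knockout samples against 5.69, 8.33 and 7.19 in *wt* (log2 fold change -0.39, SE 0.32, unadjusted p = 0.267, edgeR). That difference was -0.14 without knockout sample 1 and -0.78 without knockout sample 3 (unadjusted p = 0.0271, edgeR).

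*Plagl1*, the paternally expressed zinc finger factor introduced above, lies on chromosome 10 at 13090691 to 13131694 on the plus strand. Its level was 175, 225 and 178 CPM in knockout samples against 133, 218 and 149.5 in *wt*. The second sample was the highest of both genotypes, and the genotypes overlapped. Its log2 fold change was 0.21 (SE 0.20, unadjusted p = 0.328, adjusted p = 0.803, edgeR), and it was 0.0662 without *wt* sample 1 and 0.45 without *wt* sample 2 (unadjusted p = 0.0205).

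*Ndn* encodes necdin, a paternally expressed protein that binds E2F factors and holds cells out of division (chromosome 7, 62348277 to 62349928, plus strand). It was counted at 104, 98.2 and 131 CPM in knockout samples against 88.4, 91.6 and 93.8 in *wt*. All 3 knockout samples were higher, the second by little. Their log2 fold change was 0.28 (SE 0.13, unadjusted p = 0.0563, adjusted p = 0.717, edgeR), and 0.15 without knockout sample 3 (unadjusted p = 0.236). The summed level of 10 genes of dividing cells was 349, 548 and 258 CPM in knockout samples against 784, 460.3 and 465 in *wt*, and *Ndn* varied against it (r = -0.872, 6 samples). The part of cell division in the *Ndn* values was not tested.

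*Mest*, also called *Peg1*, encodes a paternally expressed enzyme of the hydrolase fold that is abundant in growing mesoderm and fat (chromosome 6, 30723547 to 30748455, plus strand). Its level was 261, 778 and 393 CPM in knockout samples against 462, 559 and 464 in *wt*. The knockout samples spanned 2.98 times from lowest to highest and enclosed all *wt* samples. The log2 fold change was -0.05 (SE 0.35, unadjusted p = 0.888, adjusted p = 0.977, edgeR). Its sign turned when either the first or the third knockout sample or the second *wt* sample was left out. Without the second knockout sample it was -0.60 (unadjusted p = 0.0208, edgeR).

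*Mest* varied over the 6 samples with 2 of the 3 adipocyte markers that could be tested, *Pparg* and *Fabp4*. *Pparg*, the transcription factor that drives fat cell formation, was at 8.68, 40.1 and 12.3 CPM in knockout samples against 17.0, 34.6 and 17.1 in *wt*, with the second sample highest in both (r = 0.951 with *Mest*). The lipid carrier gene *Fabp4* spanned 21.2 to 257 CPM and *Mest* varied with it as well (r = 0.837). The summed level of 6 adipocyte markers was 34.7 to 299 CPM in knockout samples against 39.4 to 184 in *wt*, while *Adipoq*, the hormone of mature fat cells, stayed at or under 0.482 CPM. *Cebpa*, another transcription factor of fat cells, was at 1.22 to 1.33 CPM in knockout and 0.769 to 1.20 in *wt* samples, with no peak in the second sample of either genotype. The remaining 3 of the 6, *Adipoq*, *Plin1* and *Cidec*, were too low to test. The part of these cells in the *Mest* values was not tested. *Mest* also shares 902 of its 3935 exonic bases (22.9%) with *Copg2* on the opposite strand, and reads there were counted for neither gene unless strand was used.

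**Figure D2:**
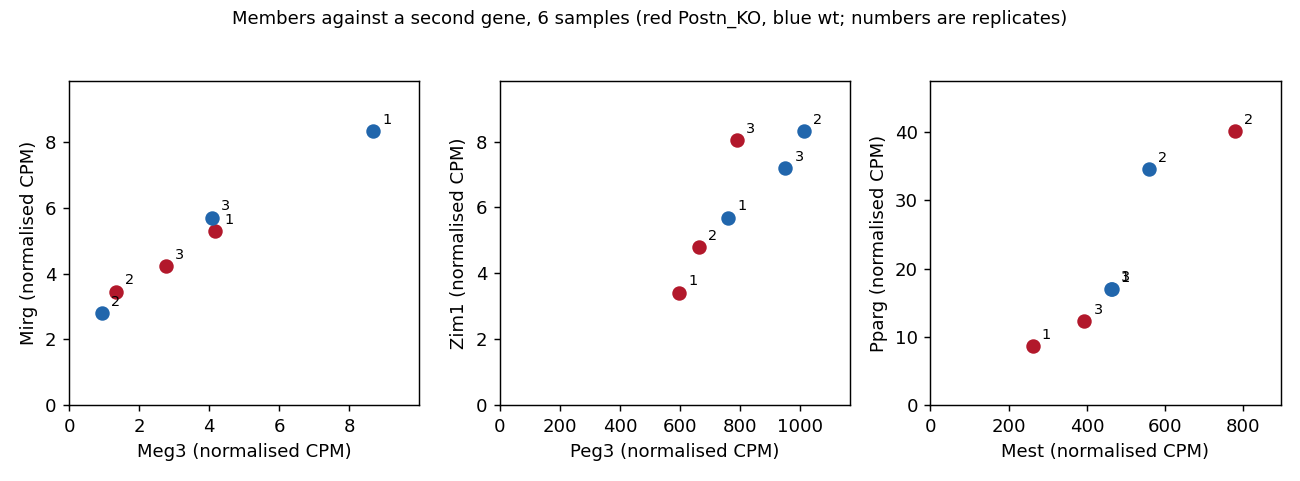
Normalised CPM of *Meg3* against *Mirg*, *Peg3* against *Zim1* and *Mest* against *Pparg* in the 6 samples, numbered by replicate (red *Postn*-/-, blue *wt*). The second sample of each genotype is highest for *Mest* and *Pparg*, and *wt* sample 1 is highest for *Meg3* and *Mirg*.

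*Dlk1*, a paternally expressed membrane protein of the Notch ligand family that holds back fat cell formation, and *Meg3*, a maternally expressed noncoding RNA, belong to the same domain on chromosome 12. *Dlk1* (109452823 to 109463336, plus strand, 5657 exonic bases) was listed at 0 reads in all 6 samples. *Rtl1*, a paternally expressed gene of retroviral origin, and *Rian*, a maternally expressed noncoding RNA, were at 0 in all 6 as well. These zeros cannot be read as silence. The deposited table lists 13 patch scaffolds, alternative copies of stretches of chromosomes that Ensembl keeps beside the chromosomes. The features on the patch scaffold of chromosome 12 run from 109452823 to 109690052, and the bounds of the scaffold itself are not given.

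On that scaffold stand 49 features, all at 0 reads. Among them are a second *Dlk1* with the same exonic length, start and strand, and second copies of *Rtl1* and *Rian* whose exonic lengths match and whose starts are shifted by 508 bases. The authors counted uniquely aligned reads, and a read that matches both copies is not unique. Of 48 protein-coding genes with a twin of equal length, span and strand on any patch scaffold, 45 were at 0 in all 6 samples (93.8%), against 1064 of 21336 without a twin (4.99%). *Ppp1ca*, a phosphatase subunit that every cell uses, is among the 45. *Dlk1* therefore had no usable measurement, neither a fold change nor a ratio to *Meg3* was computed, and no limit is put on its level.

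**Figure D3:**
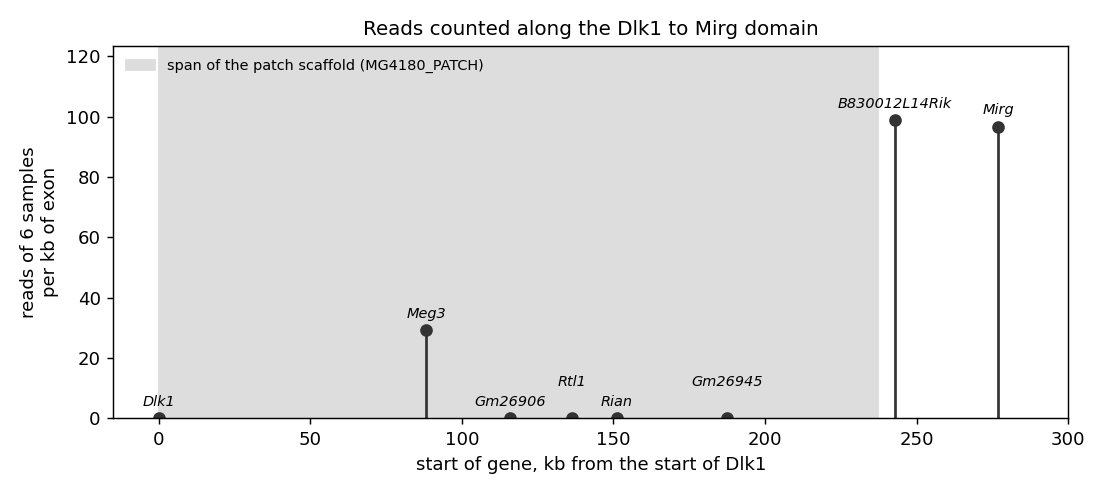
Reads of all 6 samples per kb of exon for genes of at least 1 kb of exon, placed by kb from the start of *Dlk1*, with the span of the features on the patch scaffold in grey. Inside that span 5 of 6 genes are at 0, with *Meg3* the exception, while *B830012L14Rik* and *Mirg* beyond it have reads.

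*Meg3* (109541001 to 109571726, plus strand) lies within the same span but has no twin of its full exonic length there, and it kept 527 reads in total. Its level was 4.18, 1.34 and 2.76 CPM in knockout samples against 8.69, 0.950 and 4.07 in *wt*. The values spanned 9.15 times with the lowest and the highest both in *wt*. The log2 fold change was -0.73 (SE 0.70, unadjusted p = 0.327, adjusted p = 0.803, edgeR), and it was 0.14 without *wt* sample 1 and -1.21 without *wt* sample 2 (unadjusted p = 0.0443). How much of the transcript these reads stand for was not tested.

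*Mirg*, the maternally expressed host of a microRNA cluster further along the same domain, starts 277 kb from *Dlk1* and lies outside the span of the scaffold's features. It was at 5.30, 3.46 and 4.24 CPM in knockout samples against 8.34, 2.81 and 5.70 in *wt*, and over the 6 samples it varied with *Meg3* (r = 0.99), with *wt* sample 1 highest and *wt* sample 2 lowest for both. Its log2 fold change was -0.38 (SE 0.38, unadjusted p = 0.351, edgeR), with overlapping genotypes. The sign turned without *wt* sample 1 (0.0297), and the value was -0.70 without *wt* sample 2 (unadjusted p = 0.0389, edgeR). *Dio3*, the paternally expressed thyroid hormone deiodinase at the far end of the domain, was at 2.97, 1.99 and 1.43 CPM in knockout samples against 1.42, 1.90 and 0.863 in *wt* (log2 fold change 0.61, SE 0.38, unadjusted p = 0.146, edgeR). *Dio3* was at 0.30 without knockout sample 1, 0.37 without *wt* sample 3 and 0.89 without *wt* sample 2. Its correlation with *Meg3* was -0.272.

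*Gnas* encodes the stimulatory G protein subunit that passes the signal of the parathyroid hormone receptor to adenylyl cyclase in growth plate cartilage, and its locus makes several transcripts with different parental origin (chromosome 2, 174284320 to 174346744, plus strand). It was at 3.58, 2.89 and 4.0 CPM in knockout samples against 5.04, 2.72 and 3.93 in *wt*. The genotypes overlapped, and the second sample was lowest in both. The log2 fold change was -0.16 (SE 0.28, unadjusted p = 0.572, adjusted p = 0.888, edgeR), with 60 to 131 reads behind each value. The sign turned without *wt* sample 1 (0.0701), and the value was -0.37 without *wt* sample 2.

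Exons of *Gnas* are shared with features on the opposite strand. The table holds a minus-strand feature, *Gm20721*, with 1469 of its 1484 exonic bases (99.0%) on exons of *Gnas*, between 46.0 and 62.4 kb from the start of the gene, where the exons common to its coding transcripts lie. *Gm20721* itself was listed at 0 to 3 reads. With *Nespas*, the antisense RNA at the other end, 2457 of 11186 exonic bases of *Gnas* (22.0%) are shared, and the authors counted only reads that fall on a single feature. That share is of all alternative exons together, and between 46.0 and 62.4 kb most exons of *Gnas* lie under *Gm20721*. Without use of strand, reads on the bases shared there were counted for neither feature. Whether counting used strand is not stated, and the library kit does not mark it. How many *Gnas* reads were left uncounted, and which transcripts the counted ones stand for, was not tested. The *Gnas* values are therefore not taken as a level of the transcript for the G protein subunit.

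**Figure D4:**
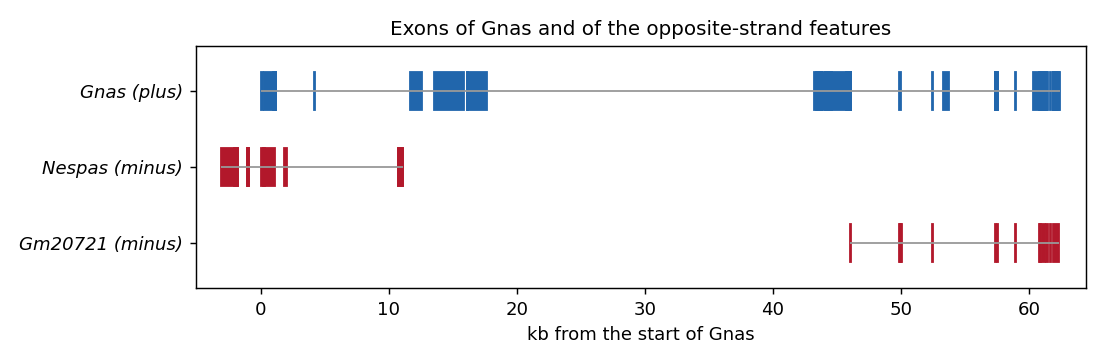
Exons of *Gnas* and of the minus-strand features *Nespas* and *Gm20721*, by kb from the start of *Gnas*, with thin lines for the spans. The exons of *Gm20721* stand over those of *Gnas* from 46.0 to 62.4 kb.

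Beside *Mest* and *Gnas*, with shares of 22.9% and 22.0%, the other members share less of their exons. *H19* shares 225 bases with the miR-675 hairpin and a pair of small features, *Meg3* shares 1499 bases, *Plagl1* 38, and *Dlk1*, *Peg3*, *Ndn* and *Grb10* none. No 50-base word of *Peg3*, *Plagl1*, *Ndn* or *Grb10* transcripts occurs in transcripts of another gene on the chromosomes.

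Among the members themselves the levels did not move as a block. Over the 6 samples *Meg3* varied with *Gnas* (r = 0.947) and against *Plagl1* (r = -0.953), and *Plagl1* varied against *Gnas* (r = -0.947). With the summed adipocyte markers *Meg3*, *Gnas* and *Plagl1* had r = -0.816, -0.804 and 0.751, and with the summed fibroblast markers -0.751, -0.842 and 0.731. The adipocyte sum was made up mostly of *Fabp4*, with *Pparg* next, and the other adipocyte markers added little. The part of these markers in the relations was not tested. *Ndn* varied against *Grb10* (r = -0.732), and *H19* with *Mest* at 0.51. With 6 samples that share depth and handling, such values are a description of these libraries.

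Among all tested genes, the 2 most like each member by r over the 6 samples were of mixed kinds. *H19* was closest to *Fos* (r = 0.985), an immediate early gene at 4.31 to 26.5 CPM, and *Mtf1*, the metal-responsive factor (r = 0.982). For *Mest* they were *Cited2*, a transcriptional coregulator (r = 0.997), and *Pde5a*, a cyclic GMP phosphodiesterase. *Peg3* was closest to *Slc35d1*, a nucleotide sugar transporter needed for cartilage proteoglycan, and *Nmd3*, and *Ndn* to *Fam193a* and *Chit1*. *Grb10* was closest to *Rps27a* (r = 0.997) and *6330549D23Rik*, *Plagl1* to *Gatad2a* and *Chchd2*, *Meg3* to *Bbs10* and *Gigyf1*, and *Gnas* to *BC005624* and *Acy1*. Between 48 and 336 tested genes per member had r above 0.9, so closeness at this number of samples is common.

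Other imprinted genes gave a measure of the family around the members. Of 55 named, 50 were in the table and 36 could be tested, none passed the adjusted threshold, and 2 (5.56%) had an unadjusted p of at most 0.05, beside 6.3% of all genes. Their median log2 fold change was 0.0554, with 19 above 0 and 17 below. *H13*, a maternally expressed signal peptide peptidase, was at 138, 148 and 129 CPM in knockout samples against 106, 124 and 106 in *wt* (log2 fold change 0.31, SE 0.11, unadjusted p = 0.0236, adjusted p = 0.717, edgeR). *Sgce*, a paternally expressed sarcoglycan of the *Peg10* domain, was at 91.4, 94.8 and 87.6 CPM in knockout samples against 111, 109 and 102 in *wt* (log2 fold change -0.23, SE 0.09, unadjusted p = 0.037, adjusted p = 0.717, edgeR). For both the genotypes did not overlap.

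**Figure D5:**
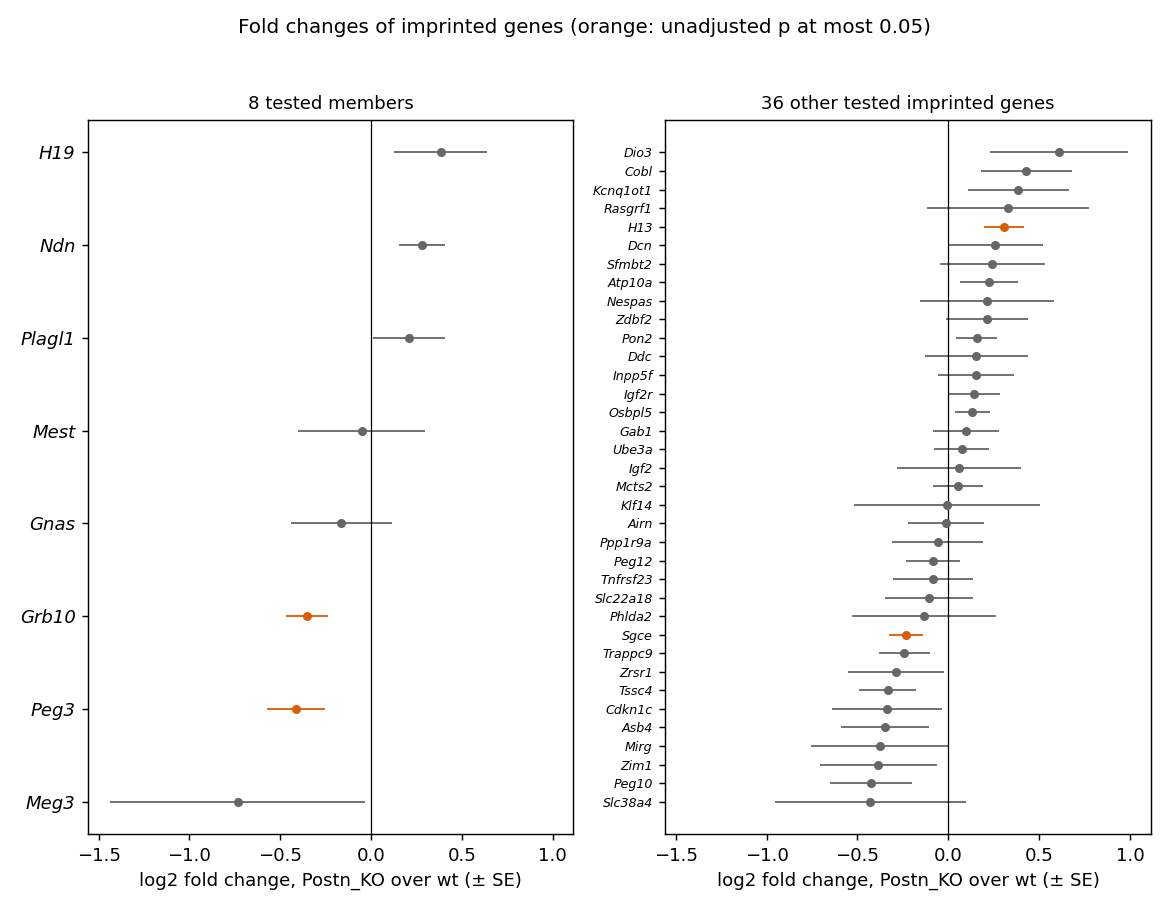
Log2 fold change of *Postn*-/- over *wt* with its SE for the 8 tested members and for 36 other tested imprinted genes, orange where the unadjusted p was at most 0.05. *Grb10* and *Peg3* among the members and *H13* and *Sgce* among the others are the 4 genes in orange, and none passed the adjusted threshold.

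The most abundant of these others was *Dcn*, a small proteoglycan of matrix, with 981 to 2103 CPM in knockout samples against 1118 to 1396 in *wt*. *Igf2r*, the maternally expressed receptor that clears IGF2, was at 131 to 185 CPM in knockout samples against 147 to 153 in *wt* (log2 fold change 0.14, SE 0.14, unadjusted p = 0.348, edgeR). Without knockout sample 1 the difference was 0.29 (unadjusted p = 0.0321, edgeR), and without knockout sample 2 or 3 it was 0.0527 or 0.0758. *Peg10*, a paternally expressed gene of retroviral origin, had a log2 fold change of -0.42 (SE 0.23, unadjusted p = 0.0992, edgeR) with 32.5 to 56.9 CPM in knockout samples against 47.1 to 59.8 in *wt*, and it was -0.74 without knockout sample 2 (unadjusted p = 0.00125, edgeR). *Osbpl5* and *Pon2*, with log2 fold changes of 0.13 and 0.16, *Peg12* with -0.08 and *Kcnq1ot1* with 0.38 had overlapping genotypes. *Kcnq1ot1* was at 0.14 without *wt* sample 1 and at 0.69 without *wt* sample 3 (unadjusted p = 0.0337, edgeR).

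Other genes from around the members' domains were tested as well, 17 of 18, with 1 (5.88%) at an unadjusted p of at most 0.05, beside 6.3% of all genes, and 4 without overlap of the genotypes, where 13.6% of all genes had none. The 1 gene was *Nipa2*, a magnesium transporter on the same chromosome as *Ndn*, before it at 55931287 to 55962476, at 27.9, 31.9 and 29.3 CPM in knockout samples against 21.5, 23.8 and 24.6 in *wt* (log2 fold change 0.35, SE 0.12, unadjusted p = 0.0171, adjusted p = 0.717, edgeR). The genotypes did not overlap. *Copg2*, opposite *Mest*, had a log2 fold change of -0.08, and *Ctsz*, beyond *Gnas* with *Nelfcd* between them, of -0.01, both with overlapping genotypes. *Lsp1* and *Fuca2* overlapped too, at -0.21 and 0.22, whereas *Nelfcd* and *Sf3b5* did not, at -0.21 and -0.27 with unadjusted p = 0.163 and 0.053 (edgeR). Nor did *Cpa4*, a carboxypeptidase gene near *Mest*, at 0.46 (unadjusted p = 0.129, edgeR). *Lsp1* was at -0.46 without knockout sample 1 (unadjusted p = 0.0374, edgeR) and -0.0072 without knockout sample 2. *Fuca2* was at 0.0472 without *wt* sample 2, and *Nelfcd* at -0.0551 without *wt* sample 1.

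A further list held genes that act on methylation or chromatin at imprinted genes, among them *Tet1*, *Tet2* and *Tet3*, which act in the removal of methylation. Of this list 17 of 18 could be tested, and 2 of the 17 had a log2 fold change above 0, beside 50.8% of all genes. *Tet1*, *Tet2* and *Tet3* were among those below 0, at -0.0005, -0.10 and -0.14. A single gene (5.88%) had an unadjusted p of at most 0.05, beside 6.3% of all genes. *Ehmt2*, a histone H3 lysine 9 methyltransferase, was at 20.3, 22.8 and 21.3 CPM in knockout samples against 13.3, 18.7 and 17.0 in *wt* (log2 fold change 0.40, SE 0.16, unadjusted p = 0.0347, adjusted p = 0.717, edgeR). *Dnmt1*, which copies methylation at each division, was at 65.1, 90.9 and 51.2 CPM in knockout samples against 154, 80.6 and 91.0 in *wt* (log2 fold change -0.65, SE 0.29, unadjusted p = 0.0522, edgeR). *Dnmt1* was at -0.31 without *wt* sample 1 (unadjusted p = 0.21, edgeR) and at -0.90 without knockout sample 2 (unadjusted p = 0.0165, edgeR). Its partner *Uhrf1* stood at -0.84 (SE 0.40, unadjusted p = 0.0671, edgeR) with *wt* sample 1 highest at 79.6 CPM. *Uhrf1* was at -0.24 without that sample (unadjusted p = 0.358, edgeR) and at -1.12 without knockout sample 2 (unadjusted p = 0.0372, edgeR).

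*Dnmt1*, *Uhrf1* and *Hells*, a chromatin remodeller, varied with the summed level of the genes of dividing cells (r = 0.982, 0.954 and 0.956) and against that of the cartilage markers (r = -0.932, -0.929 and -0.894). All 10 genes of dividing cells had a log2 fold change below 0, where 50.8% of all genes were above 0. Without *wt* sample 1, *Ccna2* and *Mcm2* were above 0 (0.19 and 0.13), and *Ccna2* also was without knockout sample 1 (0.072) or 3 (0.27). *Ccnb1* (10%) had an unadjusted p of at most 0.05, beside 6.3% of all genes (-0.75, unadjusted p = 0.0467, edgeR). It was at -0.50 without *wt* sample 1 and -1.16 without knockout sample 2. Without knockout sample 1 or 3 or *wt* sample 1 or 3 its unadjusted p was 0.0792 to 0.163 (edgeR). The part of either marker list in the values of *Dnmt1*, *Uhrf1* and *Hells* was not tested. *Dnmt3a*, *Ctcf* and *Atrx*, the other abundant genes of this list, had log2 fold changes of -0.14, -0.27 and -0.14. *Zfp57*, whose site was searched above, was counted at 4.94 to 7.67 CPM in knockout samples against 5.70 to 8.46 in *wt*.

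Among 28 receptors, targets and signalling partners of the members' proteins, 27 could be tested and 1 (3.7%) had an unadjusted p of at most 0.05, beside 6.3% of all genes. *Gnb1*, a beta subunit of G proteins, was at 571, 549 and 891 CPM in knockout samples against 429, 422 and 553 in *wt*, with 1 knockout sample just below the highest *wt* sample (log2 fold change 0.52, SE 0.21, unadjusted p = 0.041, adjusted p = 0.717, edgeR). Without the third knockout sample its log2 fold change was 0.26 (unadjusted p = 0.163, edgeR), and without the first or second *wt* sample the unadjusted p was 0.102 and 0.11 (edgeR). The receptors that GRB10 binds, *Insr* and *Igf1r*, had log2 fold changes of 0.16 (SE 0.20) and -0.29 (SE 0.21) with unadjusted p = 0.433 and 0.203 (edgeR). Without *wt* sample 1 *Insr* was at -0.0004, and without *wt* sample 2 *Insr* was at 0.35 and *Igf1r* at 0.0051. *Pth1r*, the parathyroid hormone receptor upstream of the *Gnas* product, ran from 156 to 201 CPM in knockout samples against from 111 to 285 in *wt* (log2 fold change -0.09, SE 0.31). Its sign turned without *wt* sample 2 (0.38, unadjusted p = 0.0833, edgeR), and the value was -0.35 without *wt* sample 1. *Sox9*, the master factor of cartilage, was at 528, 381 and 440.2 CPM in knockout samples against 323, 417 and 413 in *wt* (log2 fold change 0.23, SE 0.16, unadjusted p = 0.198, edgeR). *Gnaq*, another G protein alpha subunit, was at 183.3 to 215.5 CPM in knockout samples against 216.6 to 256.1 in *wt*, without overlap (log2 fold change -0.17, SE 0.12, unadjusted p = 0.195, edgeR). *Gna11*, a close relative, ran from 228 to 252 CPM in knockout samples and from 240.1 to 277 in *wt*. *Prkar1a*, a regulatory subunit of protein kinase A, stayed at 455 to 462 CPM in knockout samples against 438 to 490.0 in *wt*.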

How the data were processed

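The 6 libraries, 3 per genotype, were assigned to *Postn*-/- or *wt* by their sample labels. Single-end reads of 50 bases were aligned by the authors to the Ensembl release 76 top-level assembly, which holds patch scaffolds, using STAR 2.0.4b. The authors counted uniquely aligned unambiguous reads with featureCounts 1.4.5. They deposited raw counts of 41388 genes per sample. The deposited CPM and RPKM, made by the authors from these counts, were only checked against them. Positions in the files lie on GRCm38 (99.8% of matched identifiers overlap GENCODE M21 there), although the labels name mm9. Symbols came from GENCODE M21 for 40340 identifiers (97.5%).

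After 355 rRNA genes were left out, the filter required more than 1 CPM in 2 or more samples (14533 genes). Genotypes were compared with edgeR 4.0.16 (TMM, quasi-likelihood test, Benjamini-Hochberg adjustment) in R 4.3.3, without covariates, and log2 fold changes are *Postn*-/- over *wt*. The normalised CPM printed are counts over TMM-scaled library sizes. The fit was tested on simulated data. Correlations used log2 CPM with a prior count of 2. The 15 pairs of samples differed by more than sampling noise. For the total counts, 3 reads are worth 0.113 to 0.146 CPM.

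Named were all members, *Postn*, genes with unadjusted p of at most 0.05 and up to 5 of highest level in each of the lists of other maternally and paternally expressed genes, domain neighbours, genes acting on imprinted methylation or chromatin, and partners, and the 2 genes most like each member. *Zim1*, *Mirg*, *Dio3*, *Nespas*, *Gm20721*, *Copg2*, *Zfp57*, *Tet1*, *Tet2*, *Tet3*, *Hells*, *Insr*, *Igf1r*, *Pth1r*, *Ppp1ca*, *Rtl1*, *Rian*, *B830012L14Rik*, *Fabp4* and *Pparg*, with the other markers, were added for their place in a result. Members and lists were chosen with earlier results of these data known. Alternatives were DESeq2 1.42.0 (size factors, Wald test), limma 3.58.1 voomWithQualityWeights (alone, or with 2 surrogate variables from sva 3.50.0), other filters, a block for the replicate number, and omission of single samples.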

Additional observations from a re-analysis of the deposited data

How the results depend on the processing

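No member passed an adjusted p of 0.05 under any alternative. *Grb10* kept its sign in all 13 alternatives (log2 fold change -0.41 to -0.31), with an unadjusted p of at most 0.05 in 11, *Peg3* in 13 (-0.53 to -0.32) with 9, and *Ndn* in 13 (0.15 to 0.36) with 5. *H19* (0.22 to 0.63) and *Plagl1* (0.0662 to 0.45) also kept theirs. When each sample was left out in turn, *Meg3* ran from -1.21 to 0.14, *Mest* from -0.60 to 0.24 and *Gnas* from -0.37 to 0.0701. *Meg3* turned to 0.14 and *Gnas* to 0.0701 without *wt* replicate 1, and *Mest* to 0.24, 0.0701 and 0.0458 without *Postn*-/- replicate 1, *Postn*-/- replicate 3 and *wt* replicate 2. The cause was not tested.

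The 2 genes past the adjusted threshold became 10 with DESeq2's Wald test, 1 with voomWithQualityWeights, 4 with surrogate variables, 9 without a filter on low counts, 0 with CPM above 1 in all 6 samples, and 1 to 2 when a sample was left out. The 916 genes at an unadjusted p of at most 0.05 became 1997 with surrogate variables, 1797 without a filter, and 425 to 1257 when a sample was left out (425 without *Postn*-/- replicate 3). The other imprinted genes at that threshold, 2, became 4 with voomWithQualityWeights, 6 with surrogate variables, and 1 to 4 when a sample was left out. *H13* was among them in 9 of 13 alternatives and *Sgce* in 8, and without a filter on low counts the 2 genes were *Peg10* and *Tssc4*. *Nipa2* met it in 11, *Ehmt2* in 9 (not without *Postn*-/- replicate 2 or 3 or *wt* replicate 1 or 3) and *Gnb1* in 10.

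With the replicate number as a block, 1 gene passed the adjusted threshold, other imprinted genes at the unadjusted threshold numbered 5, *Grb10* was at -0.35, *Peg3* at -0.41 and *Ndn* at 0.27 (unadjusted p = 0.0474, edgeR). Same-numbered samples had correlated deviations of 0.0824, 0.155 and 0.143, each the highest for its sample, and the labels give the number no meaning, so it was not taken as a pairing. *Dlk1* and its ratio to *Meg3* gave no value in any fit, and *Meg3* none with CPM above 1 in all 6 samples. The values of *Meg3* and *Gnas* rest on 21 to 226 reads per sample, which limits their precision.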
